A study of Arabidopsis thaliana with 3 samples.

Results

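Chloroplast antioxidant enzyme genes were described here by 5 of the 3602 genes that had a probe set of their own on the array. They are SAPX (AT4G08390) and TAPX (AT1G77490), the ascorbate peroxidases of the stroma and the thylakoid, AT3G11630, a 2-Cys peroxiredoxin, NTRC (AT2G41680), its reductase, and CCS (AT1G12520), the copper chaperone of superoxide dismutase. They were chosen by name, with earlier results of these data known, as the probe sets annotated to 1 of these genes and to no other. TAPX had 2 such probe sets and the other genes 1 each, 6 in all. All 5 genes had signals above the floor of 14.9 on all 3 arrays, as did 1796 of the 3602 genes. The floor, set at the 40th percentile of the signals, marks the level below which ratios were not taken.

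The arrays read transcripts of whole seedlings of Arabidopsis thaliana, accession Col-0, harvested at growth stage 1.02. All were grown on MS medium with 0.5% sucrose under 16 h of light and 8 h of dark. The wild type carried no modification, the mutant ppi1 carried a T-DNA in the gene of Toc33, and line 75-IV carried a T-DNA in a gene labelled Toc75 with the locus At4g09070. Toc33 acts as a receptor in the outer chloroplast envelope and Toc75 proteins as channels, which take up proteins from the cytosol. The series title names the second mutant ppi3, and each mutant is 1 insertion line. The number of plants pooled for a sample was left blank by the submitters. Each group had 1 array, so there are no replicates, no test could be run, and each difference below sets 1 array against another, so that the number of arrays limits the precision.

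Chloroplasts in the light make superoxide and hydrogen peroxide as electrons leak from the photosystems to oxygen. Superoxide dismutase turns superoxide into hydrogen peroxide. The copper and zinc form of that enzyme takes its copper from CCS. Hydrogen peroxide is then reduced to water along 2 routes. Ascorbate peroxidases use ascorbate, which is regenerated partly with glutathione and glutathione reductase. Peroxiredoxins use the thiols of their own cysteines, and NTRC, which carries a reductase and a thioredoxin domain in 1 polypeptide, reduces the 2-Cys peroxiredoxins again with NADPH. All 5 proteins are encoded in the nucleus and reach the plastid by import from the cytosol.

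The arrays had been scaled alike before deposit, with trimmed means of 100.2 on each. The scanner's background ran from 50.5 to 62.0 and its noise from 1.65 to 2.49, highest in ppi1, where 504 of 285156 cells were marked as outliers against 11 in wild type and 20 in line 75-IV. For glyceraldehyde-3-phosphate dehydrogenase the control signal at the 3′ end over that at the 5′ end was 18.7 (wild type), 1.61 (ppi1) and 2.42 (line 75-IV). For ubiquitin the same quotient was 4.16, 2.75 and 3.51 in the same order. Where the members' probe sets lie along their transcripts was not used here, and the part of this end bias in the results was not tested. Of the leaf markers set for the label, 4 of 10 had a probe set of their own. Their signals lay between 673.7 and 4813.1, and RCA, the Rubisco activase gene, was the brightest. None of 8 root and 3 seed markers had a probe set named for it. The mutated genes had none either and are not analysed here.

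The first question was how transcript levels differ between ppi1, in which Toc33 is disrupted, and wild type. Both ascorbate peroxidase genes and CCS had lower signals in ppi1, SAPX by 2.07-fold, TAPX by 1.54-fold and CCS by 1.43-fold. AT3G11630 and NTRC, the peroxiredoxin and its reductase, were within 1.08-fold of wild type. In line 75-IV the pattern was another, with CCS 2.12-fold lower and SAPX 1.43-fold higher than in wild type, and TAPX, AT3G11630 and NTRC within 1.18-fold. The plot of signals by array shows each gene on its own linear scale.

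**Figure D1:**
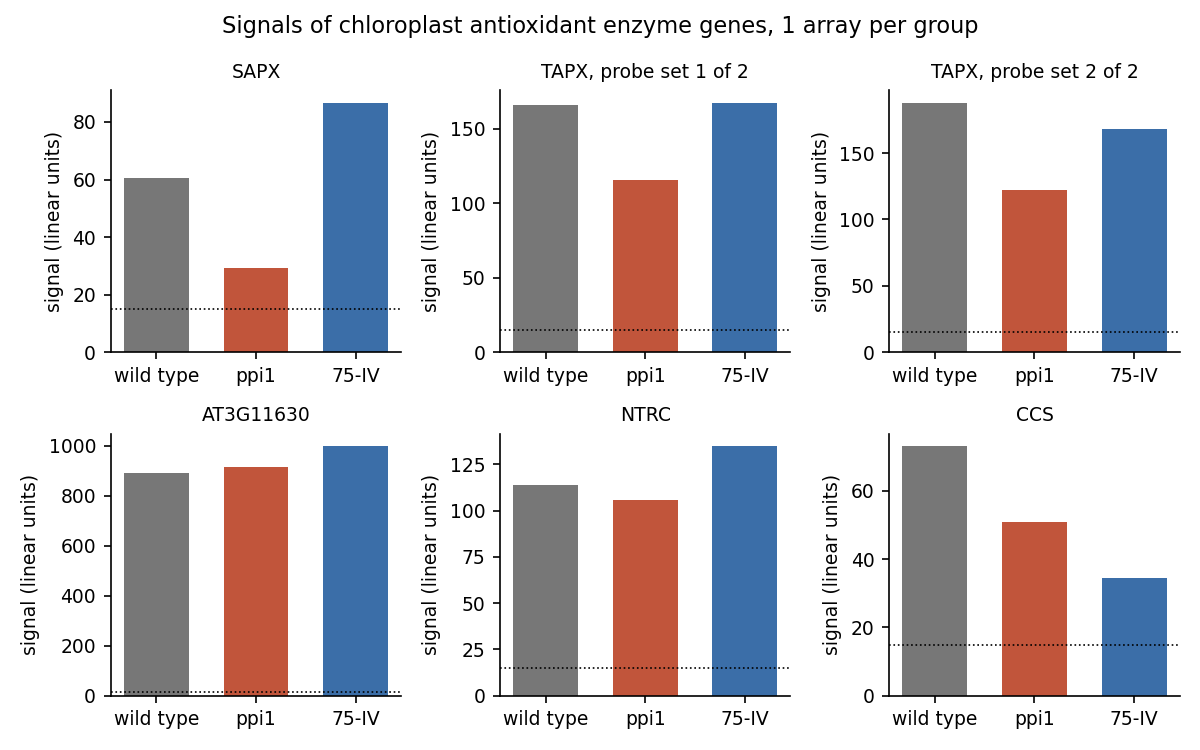
Signals of the 5 genes (6 probe sets) on the wild-type, ppi1 and line 75-IV arrays, in linear units from 0, with 1 array per bar and the floor of 14.9 as a dotted line. The SAPX bar is lowest in ppi1 (29.2) and the CCS bar lowest in line 75-IV (34.4), while the 3 bars of AT3G11630 lie between 889.4 and 996.4.

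SAPX encodes the ascorbate peroxidase of the stroma, which in Arabidopsis is also sent to mitochondria. Its signal was 60.5 (wild type), 29.2 (ppi1) and 86.6 (line 75-IV). Line 75-IV was thus highest and ppi1 lowest, at 1.96 times the floor. The log2 ratio was -1.05 in ppi1 against wild type, the 41st lowest of 1853 genes measured on both arrays. In line 75-IV against wild type it was 0.52, the 200th highest of 1858 genes. Both ratios use the same wild-type array. In the direct comparison of ppi1 with line 75-IV, which leaves that array out, the log2 ratio was -1.57, a 2.97-fold lower signal in ppi1 and the 20th lowest of 1885 genes.

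TAPX encodes the thylakoid-bound ascorbate peroxidase, and its 2 probe sets carry a suffix that marks probes shared with other sequences. The brighter one read 187.7 (wild type), 122.1 (ppi1) and 168.4 (line 75-IV). The other read 165.8, 115.3 and 167.3 in the same order. As deposited, both were lowest in ppi1, and they differed in whether wild type or line 75-IV was highest. Their log2 ratios of ppi1 to wild type were -0.62 and -0.52, those of ppi1 to line 75-IV -0.46 and -0.54, and those of line 75-IV to wild type -0.16 and 0.01. Under scaling to spike-in controls the brighter probe set stood at -0.14 in ppi1 against wild type and at 0.20 in ppi1 against line 75-IV, so that line 75-IV was then lowest. As deposited, TAPX stood 143rd lowest of 1853 genes in ppi1 against wild type and 277th lowest of 1885 in ppi1 against line 75-IV.

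A scaling by 1 factor per array shifts both peroxidase genes alike and leaves the gap between them as it is. The log2 ratio of SAPX minus that of TAPX was -0.43 in ppi1 against wild type, 0.67 in line 75-IV against wild type and -1.10 in ppi1 against line 75-IV. Quantile normalization and loess, which depend on level, gave -0.55 and -0.53, 0.66 and 0.68, and -1.21 and -1.16. The stromal gene was therefore lower relative to the thylakoid gene in ppi1, and higher relative to it in line 75-IV, than on the wild-type array. As a measure of error within arrays, probe sets of the same gene were compared, although some of them may read different transcripts. Over 83 genes with several measured probe sets, their log2 ratios of ppi1 to wild type had a pooled SD of 0.57. This SD was 0.41 over 86 genes in line 75-IV against wild type and 0.33 over 92 genes in ppi1 against line 75-IV. The peroxidase gap was under 1 such SD in ppi1 against wild type and above it in both comparisons with line 75-IV. This SD is that of single ratios, while the gap is a difference between ratios and carries the error of both genes. The SD is therefore a lenient measure for the gap. The gap uses the brighter TAPX probe set. With the other probe set it is smaller in both comparisons with line 75-IV and wider in ppi1 against wild type. The SD says nothing of the spread between plants.

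AT3G11630 encodes a 2-Cys peroxiredoxin, an abundant stromal enzyme that reduces hydrogen peroxide with a pair of cysteines. Its signal was 889.4 (wild type), 914.7 (ppi1) and 996.4 (line 75-IV), 1.12-fold from lowest to highest. This was the narrowest spread of the 5 genes as deposited, but not under the spike-in scaling, where it was 1.45-fold against 1.26-fold for TAPX and 1.30-fold for NTRC. The log2 ratio was 0.04 in ppi1 against wild type, -0.03 after median centring and 0.52 under scaling to spike-in controls. It was 0.16 in line 75-IV against wild type (-0.01 under the spike-in scaling) and -0.12 in ppi1 against line 75-IV (0.54). Its probe set carries the suffix for shared probes, and Arabidopsis has a second, closely similar 2-Cys peroxiredoxin gene, so the signals of both could be mixed.

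NTRC read 113.9 (wild type), 105.7 (ppi1) and 134.6 (line 75-IV). It was lowest in ppi1 and highest in line 75-IV, as was SAPX, an order of the arrays found in 327 of 1796 genes (18.2%). Its whole range was 1.27-fold, against 2.97-fold for SAPX. The log2 ratios were -0.11 in ppi1 against wild type, 0.24 in line 75-IV against wild type and -0.35 in ppi1 against line 75-IV. The first and the last were 0.38 and 0.31 under the spike-in scaling. The ratio of the peroxiredoxin minus that of its reductase was 0.15, -0.08 and 0.23 in these comparisons, each under 1 SD between probe sets.

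CCS delivers copper to copper and zinc superoxide dismutases in the cytosol and the plastid. Its signal was 73.0 (wild type), 50.9 (ppi1) and 34.4 (line 75-IV). Wild type was highest and line 75-IV lowest, at 2.31 times the floor, an order found in 180 of 1796 genes (10.0%). The log2 ratio was -1.09 in line 75-IV against wild type, the 6th lowest of 1858 genes. It was -0.52 in ppi1 against wild type, the 191st lowest of 1853, and -0.04 there under the spike-in scaling. Both ratios share the wild-type array, and the direct ratio of ppi1 to line 75-IV was 0.57, with a signal 1.48-fold higher in ppi1. As deposited, CCS was the single member with a higher signal in ppi1 than in line 75-IV, whereas under the spike-in scaling TAPX, AT3G11630 and NTRC were higher there too.

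**Figure D2:**
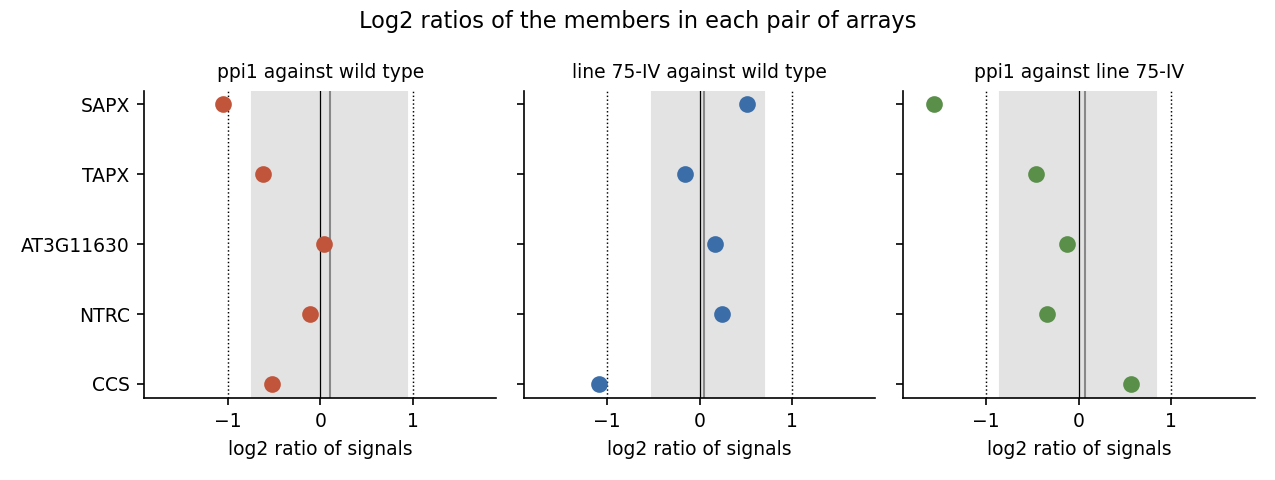
Log2 ratios of the 5 genes (points) in the 3 pairs of arrays, with the median of all measured genes as a grey line, their 5th to 95th percentile as a grey band, 0 as a solid line and 2-fold as dotted lines. SAPX lies below the band in ppi1 against wild type (-1.05) and against line 75-IV (-1.57), and CCS lies below it in line 75-IV against wild type (-1.09).

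Set against all genes, 1 of the 5 members was at least 2-fold lower in ppi1 than in wild type (SAPX) and none was at least 2-fold higher. Of all 1853 genes measured on both arrays 2.43% were at least 2-fold lower and 4.26% at least 2-fold higher. Below 0 were 4 of the 5 members and 41.5% of all genes. The members' median log2 ratio was -0.52, beside 0.11 for all genes, whose 5th to 95th percentiles were -0.74 and 0.94. Under the spike-in scaling 3 of the 5 members stayed below 0 (SAPX at -0.57, TAPX at -0.14 and CCS), beside 13% of all genes, and none was 2-fold lower, while the median of all genes moved to 0.57. Median centring put AT3G11630 just below 0 as well, at -0.03, beside 46.6% of all genes below 0.

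In line 75-IV against wild type 1 of the 5 members was at least 2-fold lower (CCS), beside 0.431% of 1858 genes, and none was at least 2-fold higher, beside 1.45%. The members' median was 0.16 and that of all genes 0.05, with 5th and 95th percentiles of -0.51 and 0.69. Below 0 were 2 of the 5 members and 44.3% of all genes. Under the spike-in scaling these were 3 of the 5 and 65% of all genes, whose median was -0.12. In ppi1 against line 75-IV 1 of the 5 was at least 2-fold lower (SAPX), beside 3.5% of 1885 genes, and none was at least 2-fold higher, beside 2.76%. Below 0 were 4 of 5 members and 43.9% of all genes. Under the spike-in scaling these were 1 of 5 (SAPX) and 9.63% of all genes, whose median was 0.70. The members' median there was -0.35, beside 0.07. With 5 genes, 1 gene past 2-fold is a description of that gene and not of the group. Because the members were chosen with earlier results of these data known, the shares of all genes are not an independent comparison.

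SAPX and CCS both lay in the middle tercile of genes by mean signal in every pair of arrays, where 7.29% of 617 genes were at least 2-fold apart in ppi1 against wild type, 2.26% of 619 in line 75-IV against wild type and 6.85% of 628 in ppi1 against line 75-IV. TAPX, AT3G11630 and NTRC lay in the highest tercile, where these shares were 6.63%, 1.62% and 6.84%.

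**Figure D3:**
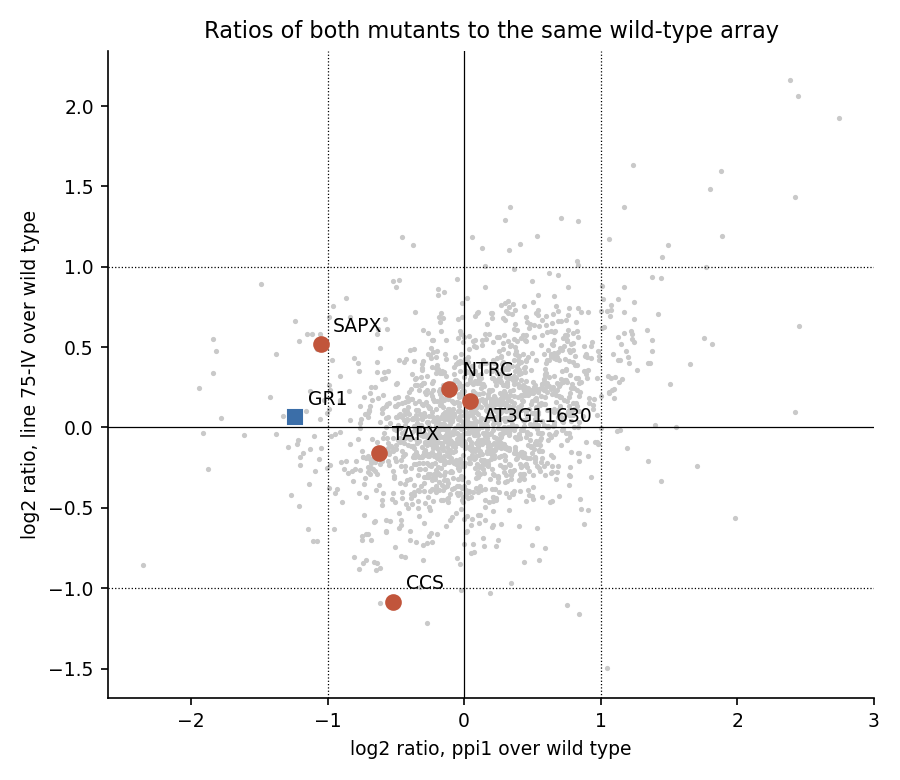
Log2 ratio of ppi1 to wild type (horizontal) and of line 75-IV to wild type (vertical) for the 1796 genes above the floor on all 3 arrays (grey), with the 5 genes as red circles GR1, a glutathione reductase gene, as a blue square and 2-fold as dotted lines. The axes share the wild-type array. SAPX lies to the left and above 0, CCS below 0 on both axes, and AT3G11630 and NTRC near the centre.

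The leaf markers were set beside the peroxidase genes. PSAN, a subunit of photosystem I, PRK, the phosphoribulokinase, SBPASE, the sedoheptulose bisphosphatase, and RCA had log2 ratios to wild type of -1.21, -0.74, -0.42 and -0.23, beside -1.05 for SAPX and -0.62 for TAPX. Below 0 were thus 4 of 4 measured markers and 41.5% of all genes, and under the spike-in scaling 2 of 4 (PSAN and PRK) and 13% of all genes. In line 75-IV the 4 lay between -0.23 and 0.11. In such whole seedlings, fewer green cells and less RNA per cell cannot be told apart, and the part of leaf tissue in the ratios of the peroxidase genes was not tested.

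The genes nearest to each member were found by the distance between their pairs of log2 ratios, ppi1 and line 75-IV each over wild type, among the 1796 genes above the floor on all 3 arrays. With 3 arrays a close match is common for genes near the centre and rarer at the edge. Within a distance of 0.25 of SAPX lay 9 other genes, and 4 lay that near to CCS. For TAPX there were 94, for NTRC 218 and for AT3G11630 282. Nearest to SAPX was LHCB4.3, which encodes an antenna protein of photosystem II, with signals of 124.2 (wild type), 58.9 (ppi1) and 174.1 (line 75-IV) and a distance of 0.04. AT2G18150 and AT2G19970 followed at 0.06 and 0.09.

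Nearest to CCS was AT1G21400, which encodes part of the dehydrogenase for branched-chain keto acids, with 79.8 (wild type), 52.0 (ppi1) and 37.5 (line 75-IV) and a distance of 0.10. It was followed by the glucosyltransferase gene UGT84A3 (0.21) and by ALDH6B2, an aldehyde dehydrogenase (0.23), whose signal of 15.0 in line 75-IV lay just above the floor. The nearest genes to TAPX were AT2G35810, AT4G26650 and AT2G43540, those to NTRC were AT5G26010, AT1G27100 and AT2G32070, and those to AT3G11630 were AT2G29210, ECS1 and AT2G43945, all within 0.04.

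Of the wider lists for antioxidant enzymes, thioredoxins and copper handling, 5 of 88 entries had a probe set of their own, and 4 were above the floor. GR1, the glutathione reductase of cytosol and peroxisomes, which returns oxidised glutathione to its thiol form, had the largest difference. Its signal was 543.1 (wild type), 230.5 (ppi1) and 567.3 (line 75-IV). Wild type and line 75-IV were within 1.04-fold, and ppi1 was 2.36-fold below wild type and 2.46-fold below line 75-IV. The log2 ratio of -1.24 to wild type was the 18th lowest of 1853 genes and stood at -0.75 under the spike-in scaling. In ppi1 against line 75-IV it was -1.30, the 34th lowest of 1885 genes. The glutathione reductase gene of plastids and mitochondria, GR2 (AT3G54660), read 6.0 (wild type), 12.5 (ppi1) and 10.5 (line 75-IV), below the floor on each, so no ratio was taken.

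The other 3 genes belong to the thioredoxin system, which passes electrons from ferredoxin to disulfides of stromal enzymes. The catalytic subunit gene of ferredoxin-thioredoxin reductase, AT2G04700, read 1210.0 (wild type), 906.4 (ppi1) and 1168.7 (line 75-IV). TRXF2, a thioredoxin of the f type, read 1023.8, 791.3 and 900.2, and the thioredoxin y gene ty2 (AT1G43560) read 88.5, 105.5 and 83.3. The first pair was lowest in ppi1, with log2 ratios to wild type of -0.42 and -0.37, and ty2 was highest there, with 0.25. Under the spike-in scaling the pair stood above 0, at 0.07 and 0.11. In line 75-IV all 3 were lower than in wild type, by 1.14-fold or less, as were 44.3% of all genes. After quantile normalization 2 of 3 were lower, beside 49.8% of all genes. None of the 3 was 2-fold apart in any pair of arrays, save ty2 in ppi1 against line 75-IV under the spike-in scaling (1.00). The median of all genes was 0.70 in that comparison under that scaling. Over the 4 genes above the floor the median log2 ratio was -0.39 in ppi1 against wild type, beside 0.11 for all genes. GR1 was the 1 of 4 at least 2-fold lower, beside 2.43% of all genes, and under the spike-in scaling none was. In line 75-IV against wild type their median was -0.07, beside 0.05, and none was 2-fold apart. No entry of the copper list had a probe set annotated to it alone, so CCS could not be set beside other genes of copper handling. Probe sets with several genes (70) or without a listed gene (4433 of 8297) were not used. Whether some of them read the missing entries of these lists was not tested.

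**Figure D4:**
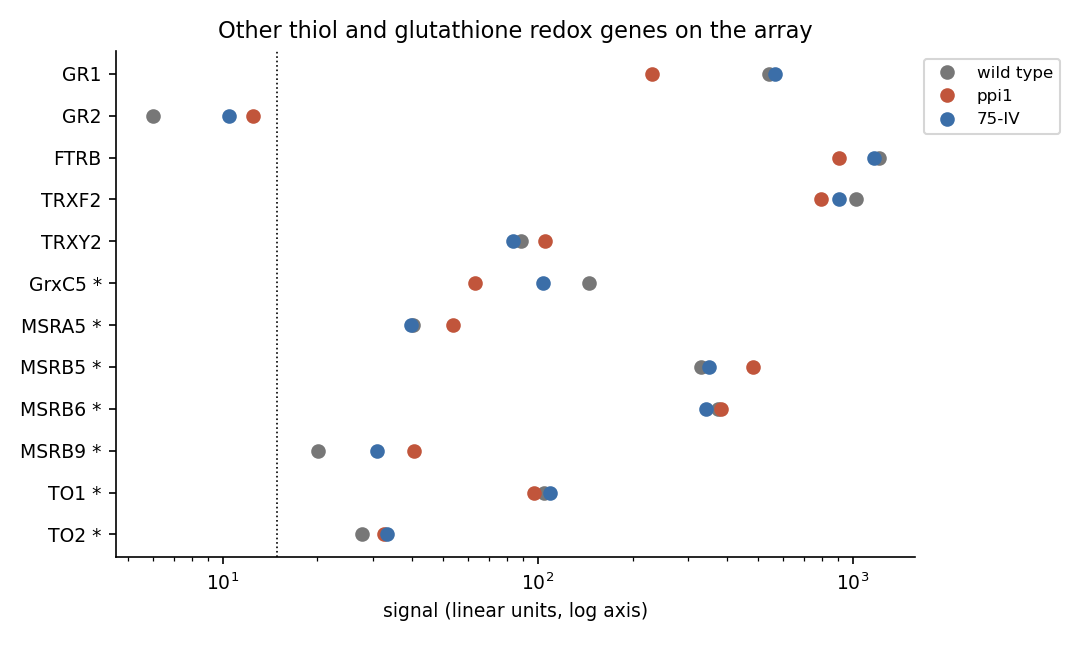
Signals (linear units on a log axis) of 12 further redox genes on the wild-type (grey), ppi1 (red) and line 75-IV (blue) arrays, with the floor of 14.9 as a dotted line and with asterisks on genes added by a keyword search. FTRB is AT2G04700 and TRXY2 is ty2. GR1 is lower in ppi1 (230.5) than on the other arrays, and GR2 lies below the floor on all 3.

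Median centring, quantile normalization and loess on level left SAPX between -1.25 and -1.12 in ppi1 against wild type. They left CCS between -1.17 and -1.15 in line 75-IV against wild type. The bacterial and phage spike-in controls, which are normally added before hybridisation and were read by 9 probe sets, had a mean log2 ratio of -0.48 in ppi1 against wild type and 0.18 in line 75-IV against wild type. Scaled to them, SAPX stood at -0.57 in ppi1 against wild type and at -0.91 in ppi1 against line 75-IV, and CCS stood at -1.26 in line 75-IV against wild type. The gap between SAPX and TAPX is not moved by such a factor.

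**Figure D5:**
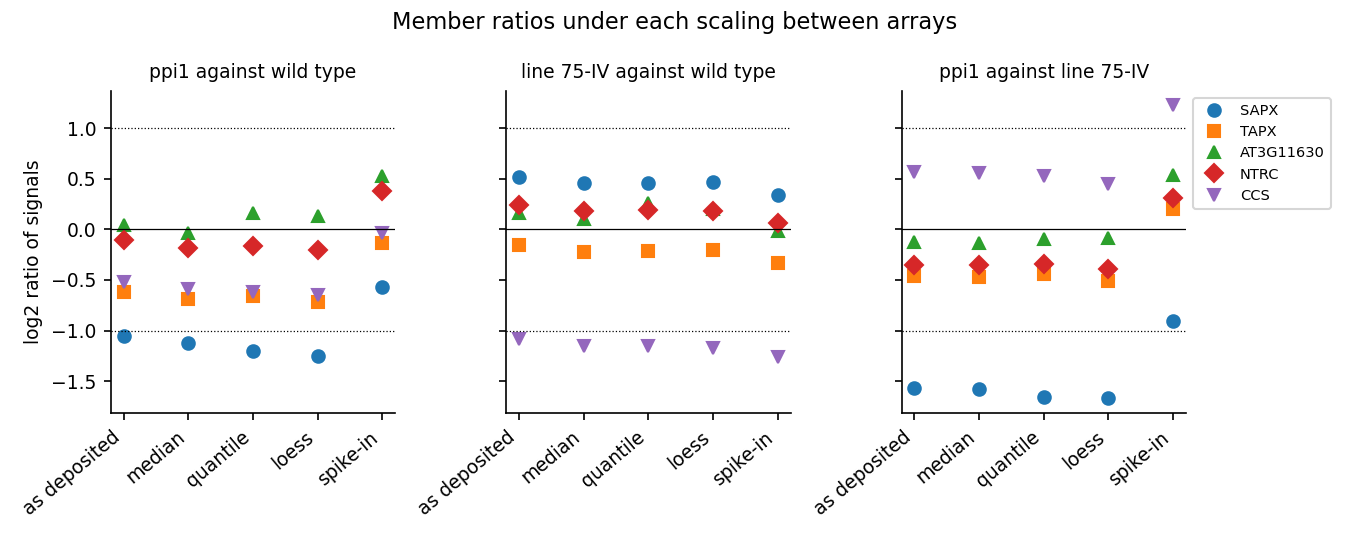
Log2 ratios of the 5 genes in the 3 pairs of arrays with the signals as deposited and after median centring, quantile normalization, loess on level and spike-in scaling, with 2-fold as dotted lines. The spike-in scaling raises all ratios of ppi1, SAPX from -1.05 to -0.57 against wild type, and lowers those of line 75-IV against wild type.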

How the data were processed

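The deposited table holds 1 linear intensity (signal) per probe set for 8297 probe sets on each of 3 Affymetrix arrays. Per the labels' protocols, biotin-labelled cRNA was made from total RNA by oligo-dT priming, so signals depend on the 3′ end. The summary software and the target of scaling are not given in the sources used here. Means trimmed by 2% were equal, so signals were used as deposited. Probe sets were named by the platform annotation (3794 with 1 gene, 70 with several, 4433 without a listed gene), and loci by the RefSeq gene table. No genome build was given, so no coordinates are printed. For genes with several probe sets the one with the highest mean log2 signal stands. Genes counted as measured if both arrays exceeded the floor, and a 2-fold difference is a rule of size. No p-value was computed. Genes named are the members, listed redox genes, and the 3 nearest genes of each member. Members and lists were chosen with earlier results of these data known. The ratio calculation was tested on simulated data. Python 3.11.15, pandas 2.3.3 and statsmodels 0.14.6 were used. Alternatives were 4 scalings (loess span 0.4), other floors (20th percentile, 60th percentile, none), other probe set rules, and 1.5-fold and 3-fold thresholds.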

Additional observations from a re-analysis of the deposited data

How the results depend on the processing

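Of 125 values of the members' log2 ratios under alternative scalings, floors and probe set rules, 119 kept their direction. The other 6 were 5 under the spike-in scaling and AT3G11630 after median centring, with none of them 2-fold apart as deposited. A change of floor leaves a measured ratio as it is, and a probe set rule can alter only TAPX. Many of the 125 values therefore could not change direction, and all 6 that did came from the scalings. Under the spike-in scaling no member and no listed redox gene was 2-fold lower in ppi1 than in wild type or line 75-IV (0 each, from 1). Of all genes 0.643% and 0.93% were. Under that scaling 1 member (CCS, 1.23) and 1 listed gene (ty2) were 2-fold higher in ppi1 than in line 75-IV. The median of all genes was 0.70 there. The share of all genes 2-fold higher was not computed, so CCS and ty2 cannot be set against it. In each comparison 1 of 4 listed genes (GR1) was below 0, beside 13% and 9.63% of all genes. The factor shifts all ratios of a pair of arrays alike, and the relation of these controls to mRNA amount was not tested. A floor at the 60th percentile left 0 members 2-fold lower in each comparison, because SAPX and CCS fell below it. With the 20th percentile or no floor, GR2 counted as 1 listed gene 2-fold higher in ppi1 than in wild type. At 1.5-fold, 2 members (SAPX and TAPX) were lower in ppi1 than in wild type, beside 8.74% of all genes, and at 3-fold 0 members and 0 listed genes were apart in any comparison. TAPX and AT3G11630 have no probe set without a suffix. No paired analysis was possible because each group has 1 array. Signals near the floor limit SAPX in ppi1 and CCS in line 75-IV most, and no replicate array shows their spread.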

Other observations

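A keyword search of gene synonyms, made after the coverage of the lists was seen, gave 7 more redox genes with a probe set of their own, all above the floor on all 3 arrays. GrxC5 (AT4G28730), a glutaredoxin of plastids that reduces disulfides with glutathione, read 145.6 (wild type), 63.1 (ppi1) and 103.7 (line 75-IV). It was 2.31-fold lower in ppi1 than in wild type, the 22nd lowest of 1853 genes, and 1.40-fold lower in line 75-IV. Under the spike-in scaling its log2 ratio of ppi1 to wild type was -0.72 in place of -1.21. Wild type was highest and ppi1 lowest, the order of the arrays that TAPX also had by its brighter probe set. This order was found in 257 of 1796 genes (14.3%).

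The methionine sulfoxide reductases, which repair oxidised methionine, had log2 ratios of ppi1 to wild type from 0.04 to 1.01 with the signals as deposited. Of all genes 41.5% were below 0 there. MSRB6, at 0.04 as deposited, stood at -0.04 after median centring, beside 46.6% of all genes below 0. MSRB9 read 20.1 in wild type, near the floor, 40.5 in ppi1 and 30.9 in line 75-IV, and was 2.01-fold higher in ppi1 than in wild type, though by less than 2-fold after median centring, quantile normalization or loess. MSRB5 read 329.3, 480.3 and 348.6, MSRA5 40.1, 54.0 and 39.6, and MSRB6 372.7, 382.1 and 342.8 in the same order. The mitochondrial thioredoxin genes TO1 and TO2 had log2 ratios to wild type of -0.10 and 0.23 in ppi1 and 0.07 and 0.27 in line 75-IV. Over the 7 genes the median was 0.23 in ppi1 against wild type, beside 0.11 for all genes. Of the 7, 1 gene was 2-fold higher and 1 gene 2-fold lower, beside 4.26% and 2.43% of all genes. Under the spike-in scaling MSRB9 (1.49) and MSRB5 (1.03) were 2-fold higher. None of the 7 was 2-fold lower, beside 0.643% of all genes. The median of the 7 was then 0.72, beside 0.57 for all genes. The share of all genes 2-fold higher under that scaling was not computed, so MSRB9 and MSRB5 cannot be set against it.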
